A study of Homo sapiens with 10 samples.

Results

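The MAP4K kinases were examined in GIST-T1, an established human cell line from a metastatic gastrointestinal stromal tumour (GIST). The family was taken by gene symbol as 7 of the 58381 genes in each deposited table, namely MAP4K1, MAP4K2, MAP4K3, MAP4K4, MAP4K5, TNIK and MINK1, and all 7 passed the filter on low counts. MAP4K1 was chosen by its measured values, the fall of its counts against control in these same libraries, so its values are a description and carry no test. The other 6, called paralogues here, were taken for their family name and were tested with all 15554 genes that passed the filter.

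The series compared the control line, whose genotype is given as WT, with 4 derivatives in which a CTCF insulator was disrupted, named InsE, InsF, InsG and InsH. CTCF is a DNA-binding protein found at many loop boundaries of chromosomes. All 5 groups share the succinate dehydrogenase-intact GIST-T1 background and culture in serum, with no drug named. Polyadenylated RNA was sequenced in 2 libraries per group, 10 in all. The labels do not name the sequence edited in each line, nor do they say whether a line is a single clone or whether its 2 libraries were grown separately. The p-values below therefore measure only how far these libraries differ, which may reflect technical spread.

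MAP4Ks are serine/threonine kinases of the STE20 group that act near the top of stress signalling, where they pass signals through MAP3K and MAP2K kinases to the Jun N-terminal kinases (JNKs). Several of them also phosphorylate the LATS kinases of the Hippo pathway, which restrain the transcriptional co-activators YAP and TAZ. MAP4K1, also known as HPK1, MAP4K2, MAP4K3 (GLK) and MAP4K5 (KHS) form a subgroup of their own, and MAP4K4 (HGK), TNIK and MINK1 form another. MAP4K1 is best known from blood cells, where it dampens antigen receptor signalling in T and B cells, while the other members are expressed in many tissues.

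The genes lie on separate chromosomes apart from MAP4K3 and MAP4K4, which are both on chromosome 2 but far apart. In hg38 coordinates from GENCODE release 29, MAP4K1 spans 38587641 to 38618882 on the minus strand of chromosome 19, and MAP4K4 spans 101696850 to 101894689 on the plus strand of chromosome 2. TNIK spans 171061339 to 171460408 on the minus strand of chromosome 3, and MINK1 spans 4833388 to 4898061 on the plus strand of chromosome 17. MAP4K2 is on chromosome 11, at 64784914 to 64803241, 5.0 Mb from FGF3 on the same arm.

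Promoter windows are shown for the member that fell most, for a paralogue that passed the test and for the paralogue with the highest level, because they differ in CpG content. Each holds the 200 bases from 250 to 51 before the RefSeq transcription start (GRCh38.p14), written 5′ to 3′ on the gene's strand, with every CG dinucleotide in capitals. The first is MAP4K1, at chr19:38618004-38618203 on the minus strand, the second is TNIK, at chr3:171460459-171460658 on the minus strand, and the last is MINK1, at chr17:4833090-4833289 on the plus strand.
MAP4K1: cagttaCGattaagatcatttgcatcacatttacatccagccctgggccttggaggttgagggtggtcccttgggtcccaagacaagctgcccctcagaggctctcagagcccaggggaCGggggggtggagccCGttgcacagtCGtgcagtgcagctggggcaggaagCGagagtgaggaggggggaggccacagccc
TNIK: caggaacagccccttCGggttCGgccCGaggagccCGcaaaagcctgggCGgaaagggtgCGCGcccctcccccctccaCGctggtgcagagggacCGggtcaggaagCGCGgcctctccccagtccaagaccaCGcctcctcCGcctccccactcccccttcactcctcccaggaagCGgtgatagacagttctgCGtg
MINK1: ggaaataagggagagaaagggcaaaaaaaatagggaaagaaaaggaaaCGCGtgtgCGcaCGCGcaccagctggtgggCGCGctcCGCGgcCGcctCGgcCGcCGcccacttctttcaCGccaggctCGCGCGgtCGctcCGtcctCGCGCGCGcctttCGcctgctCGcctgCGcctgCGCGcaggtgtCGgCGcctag

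The MAP4K1 window held 5 CG dinucleotides (a motif that reads the same on both strands), the TNIK window 15 and the MINK1 window 30. At least as many CGs were found in 60.15% of 35116 RefSeq promoter windows of the same length for MAP4K1, in 32.45% for TNIK and in 3.8% for MINK1, and the median of all windows was 8. The other paralogues held 19 or 20 (MAP4K4, at its 2 RefSeq starts), 19 (MAP4K5), 26 (MAP4K2) and 33 (MAP4K3). MAP4K1 was thus the only member below the median of all promoters. The RefSeq starts of MAP4K1, MAP4K4 and MAP4K5 lie inside the GENCODE spans of their genes, so other transcripts of these genes start farther upstream. Exons of single annotated transcripts cover 200 bases of the MAP4K5 window (ATL1) and up to 167 of the MAP4K3 window (AC007388.1). They also cover up to 123 bases of a MAP4K4 window (MAP4K4 itself) and 47 of the TNIK window shown (AC092919.2). No methylation or protein binding was measured here.

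MAP4K1 was low in the control and lower still in every line. Its expected count, the estimated number of sequenced fragments, was 182.75 and 125 in control replicates 1 and 2. InsE libraries had 60 and 25 counts, InsF libraries 19 and 15, InsG libraries 32 and 10, and InsH libraries 19 and 25. Because the library totals ran from 9.4 to 42.5 M (mega) counts, these were divided by the library total and scaled to the usual unit of CPM.

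The control libraries stood at 5.93 CPM (95% Poisson interval 5.11 to 6.87) and 6.23 CPM (5.18 to 7.42). InsE stood at 1.94 (1.48 to 2.49) and 2.66 CPM (1.72 to 3.93), InsF at 0.661 (0.398 to 1.03) and 1.01 CPM (0.566 to 1.67), and InsG at 0.753 (0.515 to 1.06) and 0.902 CPM (0.433 to 1.66). In InsH the libraries lay further apart, at 0.829 (0.499 to 1.29) and 2.08 CPM (1.35 to 3.08). All 8 line libraries were below both control libraries, as were those of 14.7% of all genes tested. MAP4K1 was chosen for this fall, so neither this order nor the distance between the intervals is a test. The intervals cover counting error only. In a bulk sample, fewer cells with the transcript and less transcript per cell cannot be told apart.

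**Figure D1:**
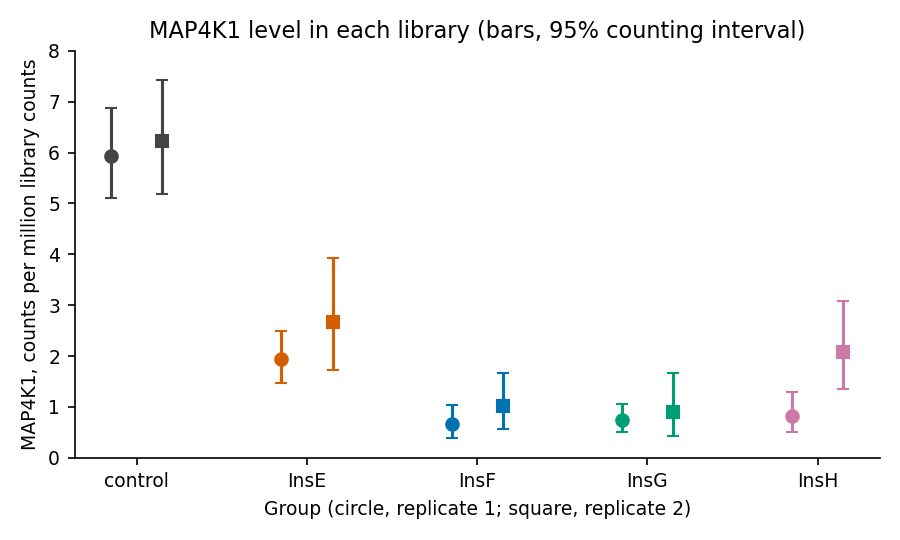
MAP4K1 level in each library in CPM (vertical axis), by group (horizontal axis), with circles for replicate 1, squares for replicate 2 and bars for the 95% counting interval. The control libraries sit at 5.93 and 6.23, and the 8 line libraries between 0.661 and 2.66, with the InsH libraries at 0.829 and 2.08.

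After scaling by TMM, a method that corrects library totals for composition, MAP4K1 averaged 6.28 ± 0.197 CPM (SD, n = 2 libraries) in the control. The line averages were 2.28 ± 0.512 (InsE), 0.833 ± 0.250 (InsF), 0.821 ± 0.104 (InsG) and 1.45 ± 0.885 (InsH). In the edgeR fit the log2 difference from control was -1.505 ± 0.35 (SE) in InsE, a level 2.84-fold lower, and -2.21 ± 0.37 in InsH, 4.64-fold lower. InsF (-2.96 ± 0.38) and InsG (-2.97 ± 0.38) were 7.79-fold and 7.84-fold lower. Their order could not be told from these libraries, because the SE of each exceeded the gap between them. InsH lay at -1.60 without InsH replicate 1 and at -2.93 without InsH replicate 2, so its place among the lines rested on single libraries. The mean of the 4 lines was -2.41 ± 0.25, 5.32-fold lower than control. These comparisons share the 2 control libraries. InsE was 1.21 ± 0.31 above the mean of InsF, InsG and InsH on the log2 scale, a value not tested either.

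Between genes, levels can be compared only per length, as TPM (transcript shares corrected for transcript length). In the control, MINK1 was highest at 66.2 ± 0.863 TPM (SD, n = 2), followed by MAP4K4 at 57.5 ± 0.424 and TNIK at 45.1 ± 0.438. MAP4K2 (26.9 ± 3.42), MAP4K3 (23.0 ± 1.37) and MAP4K5 (22.2 ± 3.70) came next and did not differ from each other beyond their spread. MAP4K1 came last, at 6.86 ± 0.198 TPM. It remained last in every line library, the highest being 4.55 TPM in InsH replicate 2 and the lowest 0.83 TPM in InsF replicate 2.

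MAP4K1 made up 2.73% and 2.81% of the family's summed TPM in the control libraries. InsE libraries had shares of 1.33% and 1.52%, InsF 0.651% and 0.349%, InsG 0.791% and 1.02%, and InsH 0.547% and 1.91%. The 8 line libraries were all below both controls in this share. For each MAP4K1 count the 6 paralogues together had 104 and 99.7 counts in the control, while the ratio was 280 and 214 for InsE, 847 and 594 for InsF, 758 and 674 for InsG, and 694 and 294 for InsH.

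The summed TPM of the paralogues stayed close to the control in 3 of the lines. Control libraries had 239.66 and 241.99, InsF libraries 235.11 and 236.94, InsG libraries 229.53 and 237.31, and InsH libraries 238.02 and 234.26. InsE was lower, at 210.06 and 205.9. Both InsE libraries were thus below the other 8 in summed TPM. Over all genes tested, the median log2(TPM + 1) difference of InsE from the mean of the other 3 lines was -0.07. The order was not the same in TMM-scaled CPM, which is not corrected for length. There all 8 line libraries had a lower sum than both controls, and InsE replicate 2 lay above InsF replicate 1. The part of the general TPM shift in the InsE sum was not tested.

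CPM and TPM differ for MAP4K1 because TPM divides by an estimated transcript length. This length is the mean over the gene's 15 listed transcripts, weighted by their estimated shares. It was 1550.92 and 1559.21 bases in the control, 1220.86 and 1402.7 in InsE, and 1204.5 and 904.74 in InsH. In InsG it was 861.66 and 780.57, and in InsF the libraries were at 869.73 and 2039.34. Of the 8 line libraries, 7 were below both controls and InsF replicate 2 was above. The estimates in InsF, InsG and InsH rest on 10 to 32 counts per library, and the loss of precision at such counts was not separated from a change of transcripts. At the control's lengths, an alternative chosen after seeing the data, InsF would hold 0.34% and 0.479% of the family's TPM and InsG 0.381% and 0.428%.

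**Figure D2:**
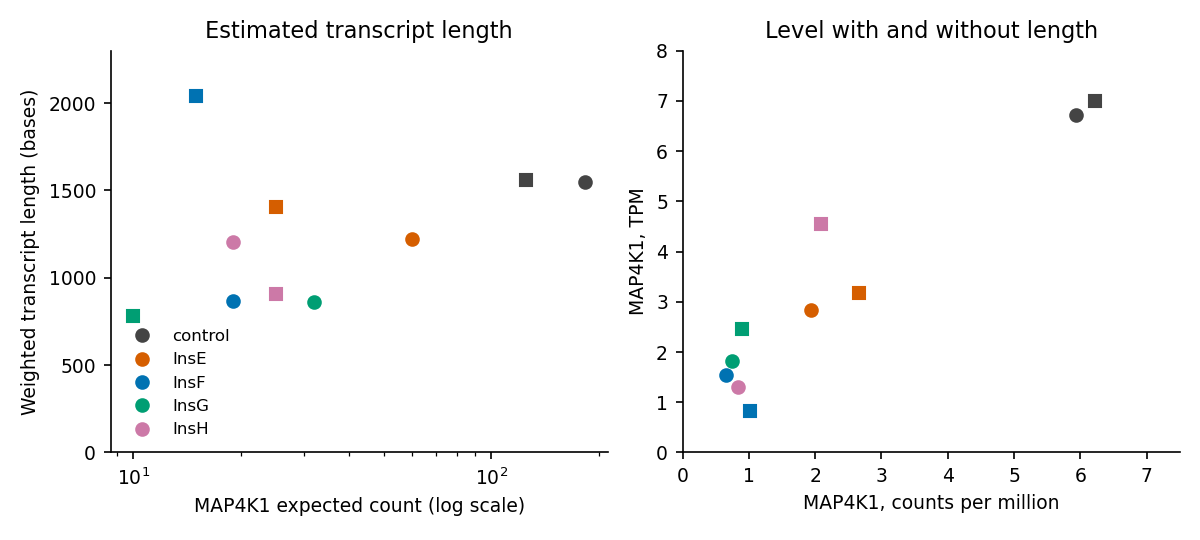
Left, the weighted transcript length of MAP4K1 in bases (vertical axis) against its expected count on a log scale (horizontal axis). Right, its level in TPM (vertical axis) against its CPM (horizontal axis). Colours mark the groups, circles replicate 1 and squares replicate 2, and the control libraries at 1550.92 and 1559.21 bases stand apart from most line libraries, with InsF replicate 2 at 2039.34.

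Of the 6 paralogues, MAP4K4 and TNIK fell in the mean of the 4 lines and none rose, by edgeR's quasi-likelihood test at a Benjamini-Hochberg adjusted p under 0.05, adjusted over every gene tested. Of all 15554 genes, 27.6% passed this test in either direction and 14.5% passed it as lower. The median log2 difference of the 6 was -0.10, beside 0.01 over all genes. A count of 2 in 6 is near that background. Both called genes belong to the subgroup with MINK1, while MAP4K2, MAP4K3 and MAP4K5 had no call. The split of calls over all genes depended on scaling, at 2039 higher and 2257 lower with TMM, 2806 and 1699 with library sizes alone, and 1435 and 801 with limma on log2(TPM + 1). The calls also rested on both control libraries, since 1501 genes passed without control replicate 1 and 1685 without control replicate 2.

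MAP4K4, a kinase linked to cell migration and to stress signalling from the tumour necrosis factor receptor, was the most strongly lowered paralogue of InsE. Its TMM-scaled level was 187 and 185 CPM in the control. The InsE libraries were at 141 and 142, the InsF libraries at 158 and 167, the InsG libraries at 158 and 169, and the InsH libraries at 157 and 166. All 8 line libraries were below both controls, as were those of 14.7% of all genes tested. In the mean of the lines MAP4K4 fell by 0.25 on the log2 scale (SE 0.04, edgeR adjusted p = 0.00275), and it missed the threshold without control replicate 1 (0.0547).

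By line, MAP4K4 fell by 0.39 (SE 0.06) in InsE, where the level was 1.31-fold lower (edgeR adjusted p = 0.00116). In the other lines it fell by 0.20 (InsF, 0.0305), 0.19 (InsG, 0.04) and 0.21 (InsH, 0.0311). The InsE call held with every library left out in turn. The other 3 did not. InsF was lost without either control library or InsF replicate 1 (adjusted p up to 0.162), InsG without either control library or InsG replicate 1 (up to 0.247), and InsH without either control library or either InsH library (up to 0.169). With library sizes alone these 3 also missed the threshold (0.0831, 0.113 and 0.0901), as they did with limma on log2(TPM + 1) (0.148, 0.359 and 0.286).

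TNIK, a kinase that binds TRAF2 and NCK and takes part in Wnt target transcription with TCF7L2, was at 150 and 155 CPM in the control. InsE stood at 133 and 134, InsF at 117 and 118, InsG at 135 and 131, and InsH at 129 and 126. Again the 8 line libraries lay below both controls. TNIK fell by 0.25 in the mean of the lines (SE 0.04, edgeR adjusted p = 0.00119). On log2(TPM + 1) with limma that call was lost (adjusted p = 0.135).

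The largest TNIK difference was that of InsF, where it fell by 0.38 (SE 0.05, 1.298-fold lower, edgeR adjusted p = 0.00072). It fell by 0.26 in InsH (0.00702), 0.20 in InsG (0.0222) and 0.19 in InsE (0.023). The InsF call held with every library left out in turn, but not with limma on log2(TPM + 1) (0.205). The InsE and InsG calls were each lost without either control library or either library of the line (adjusted p up to 0.187 and 0.171), and the InsH call without control replicate 2 (0.0803). With library sizes alone the InsE and InsG calls were lost (0.0815 and 0.0755), and limma on log2(TPM + 1) called TNIK in no line (InsE 0.0857, InsG 0.81 and InsH 0.228).

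**Figure D3:**
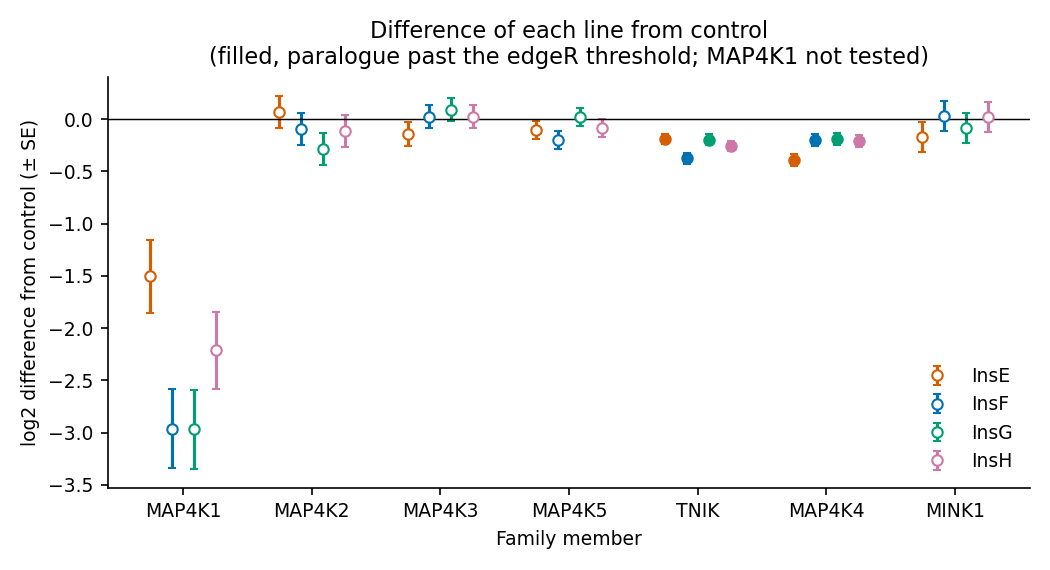
Log2 difference of each line from control with its standard error (vertical axis) for the 7 family members (horizontal axis), from the edgeR fit, with colours for the lines. Filled points passed the threshold: MAP4K4 and TNIK in all 4 lines, between -0.19 and -0.39, while MAP4K1, which was not tested, lies between -1.505 and -2.97.

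MINK1, the kinase closest to MAP4K4 and TNIK in the family, was not called against control in the mean or in any line by edgeR with the low-count filter. Without that filter MINK1 was called lower in InsE (log2 -0.20, edgeR adjusted p = 0.0462). Its level was 174 and 175 CPM in the control, and the lines stood at 141 and 172 (InsE), 161 and 197 (InsF), 147 and 183 (InsG) and 160 and 196 (InsH). The line libraries lay on both sides of the controls, 5 below and 3 above. The mean of the lines was -0.05 ± 0.11 (SE, edgeR adjusted p = 0.785), with a larger SE than MAP4K4 or TNIK.

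MAP4K2, MAP4K3 and MAP4K5 are the closest relatives of MAP4K1. MAP4K2, a kinase tied to tumour necrosis factor signalling, was at 34.7 and 34.4 CPM in the control and ranged from 26.5 to 40.1 over the lines, with 5 libraries below and 3 above both controls. MAP4K3, which takes part in amino acid signalling to mTORC1, was at 50.5 and 46.4 in the control and from 42.0 to 55.3 over the lines. MAP4K5 was at 43.3 and 42.8 in the control and from 36.0 to 44.9 over the lines, with 6 of 8 libraries below both controls.

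Their mean differences from control were -0.10 ± 0.12 for MAP4K2, 0.00 ± 0.09 for MAP4K3 and -0.09 ± 0.07 for MAP4K5 (SE, edgeR adjusted p = 0.559, 0.996 and 0.345). By this fit none of the 3 was called in any single line. Without the low-count filter MAP4K2 was called lower in InsG (adjusted p = 0.0258). The SEs do not exclude small changes. The paralogue differences in single lines ranged from -0.39 for MAP4K4 in InsE to 0.09 for MAP4K3 in InsG, all smaller in size than the smallest MAP4K1 difference of -1.505. Each line had the same count of calls, 2 of 6, both lower. Of all genes, 23.2%, 22.3%, 20.3% and 18.4% were called in InsE, InsF, InsG and InsH, and 12.4%, 11.3%, 10.5% and 9.46% as lower.

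The libraries numbered 2 and 1 within a line differed in the same direction for several members. The ratio of replicate 2 to replicate 1 for MINK1 was 1.22 to 1.24 in the 4 lines and 1.01 in the control. For MAP4K2 it was 1.17 to 1.36 in the lines and 0.991 in the control, and for MAP4K1 1.20 to 2.53 and 1.05. It was below 1 in all 4 lines for MAP4K3, at 0.836 to 0.923, and for MAP4K5, at 0.835 to 0.947. The control ratio was below 1 for both as well, at 0.919 for MAP4K3, inside the range of its lines, and 0.989 for MAP4K5. In every group the library numbered 2 was the shallower, with 9.4 to 20.1 M counts beside 22.9 to 42.5 M. The labels do not say that the number marks a shared preparation, and the part of depth in these ratios was not tested.

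**Figure D4:**
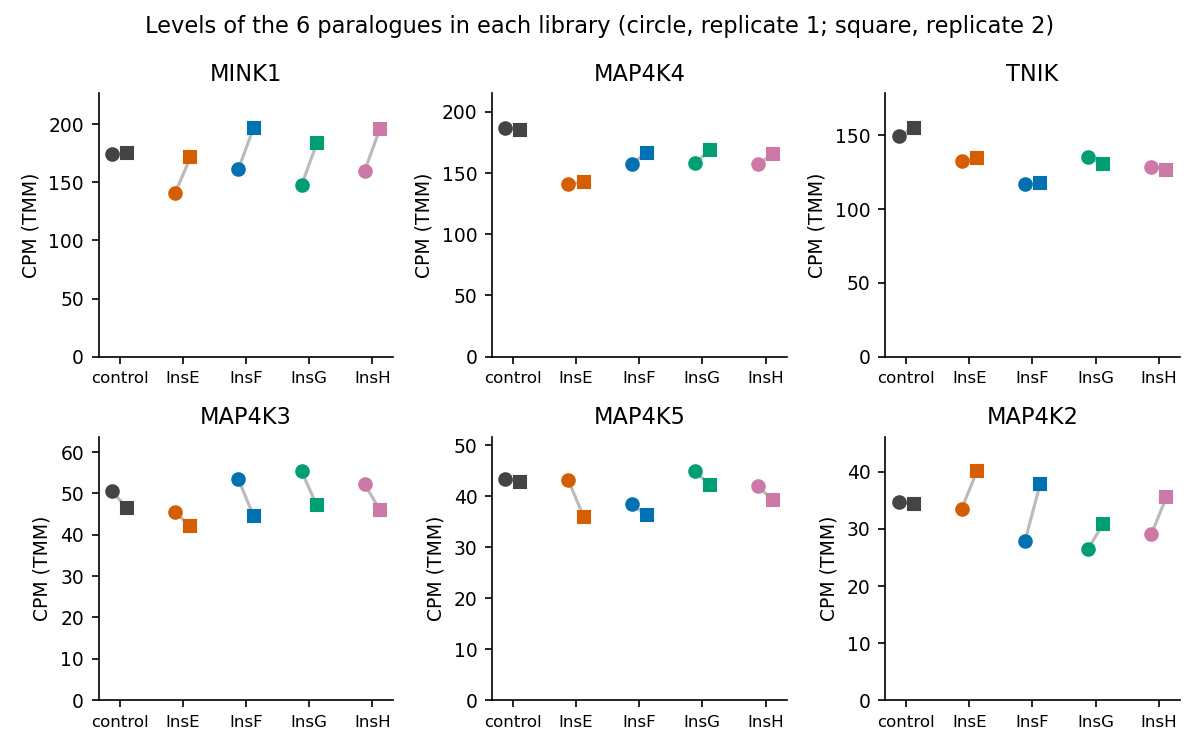
TMM-scaled CPM of the 6 paralogues (vertical axes) in each group (horizontal axes), with a circle for replicate 1 and a square for replicate 2 joined by a line. MAP4K4 and TNIK lie below both controls in all 8 line libraries, and the square lies above the circle in all 4 lines for MINK1 and MAP4K2.

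Contrasts among the lines compare no control library, although the control libraries enter the estimate of spread. In a joint test of the 4 lines by edgeR, 0 of the 6 paralogues were called, where 13.2% of all genes were. At an unadjusted p under 0.05 the count was 2 with edgeR, 2 with DESeq2 and 1 with limma on log2(TPM + 1). Over all 15554 genes these counts were 4395, 2886 and 3595. The adjusted counts of DESeq2 and limma were also 0, where 1733 and 984 of all genes were called. TNIK (edgeR adjusted p = 0.0825) and MAP4K4 (0.0899) came nearest. With a replicate block edgeR called 4 of the 6 (MAP4K2, MAP4K3, MAP4K4 and TNIK), and 5442 over all genes. In InsE against the mean of InsF, InsG and InsH, 1 of the 6 was called, as lower, where 24.2% of all genes were called and 12.8% as lower. This was MAP4K4, lower in InsE by 0.19 on the log2 scale (SE 0.05, edgeR adjusted p = 0.0155), and the call was lost without InsE replicate 1 (0.106) or InsE replicate 2 (0.0873). MAP4K1 lay the other way in this contrast, higher in InsE by 1.21, and TNIK was at 0.09 ± 0.04 (adjusted p = 0.158).

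Levels across the 10 libraries were also compared with MAP4K1 by Pearson's r of log2 CPM (prior count of 2), among 11106 genes with a mean log2 CPM of at least 1. The libraries share lines, controls and depth, so r is a description. SCAF4 (r = 0.986), AUTS2 (0.983), BCL7A (0.982), ATP2A3 (0.98) and GATA2 (0.977) were most like it. Their own mean differences from control were smaller, from -0.44 for AUTS2 to -0.75 for ATP2A3. Within the 8 line libraries ATP2A3 (0.981), NXT1 (0.976) and SAMD1 (0.971) were most like it. Of the paralogues, TNIK had r = 0.815 over the 10 libraries and 0.40 over the 8. MAP4K2 had 0.602 and 0.805, and MAP4K3 -0.41 and -0.819. The last 2 genes are among those whose libraries numbered 2 and 1 differed in each line.

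Genes near MAP4K1 on chromosome 19 had few calls against control at the adjusted threshold. Of 26 listed genes that start within 250 kb, 9 were tested. In the mean over lines edgeR called 0 of them, where 27.6% of all genes were called. At an unadjusted p under 0.05 the count was 5 of the 9, beside 6133 of all 15554 genes. DESeq2 called 1, HNRNPL, an RNA-binding protein gene at -0.23, and 2929 over all genes. Limma on log2(TPM + 1) called 1, RYR1, and 2236 over all genes. With a replicate block edgeR called 6 of the 9, and 6679 over all genes. The 9 differences ran from -0.23 to 0.65 in the mean, and in InsE SPRED3, a gene that inhibits RAS to ERK signalling, stood at 1.56 ± 0.67 (SE, edgeR adjusted p = 0.126). The nearest to the threshold were RYR1, a calcium release channel gene whose end lies next to that of MAP4K1, at 0.26 ± 0.09 (SE, edgeR adjusted p = 0.0551), and the proteasome subunit gene PSMD8 at -0.17 ± 0.06 (0.056). EIF3K, a translation factor gene, was at -0.03, and ACTN4, an actin cross-linker gene, at -0.17. Each line had a single call of its own: ACTN4 in InsE (-0.36), RYR1 in InsF (0.42), PSMD8 in InsG (-0.27) and RINL in InsH (1.08). Of all genes, 23.2%, 22.3%, 20.3% and 18.4% were called in these lines. In InsE against the mean of InsF, InsG and InsH, 1 was called higher and 2 lower, where 24.2% of all genes were called. These were SPRED3 (1.72), ACTN4 (-0.25) and RINL (-0.92), with edgeR adjusted p = 0.0484, 0.0479 and 0.0226. SPRED3 averaged only 0.2 TPM in the lines. The counting is not stated to use strand, and an antisense gene that shares 246 exonic bases with MAP4K1 was at 0 to 0.37 TPM.

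Transcripts of the adaptors that bind MAP4K1 differed widely in level. GRB2, a general adaptor, was at 105 to 138 TPM and DBNL, an actin-binding partner, at 132 to 168 TPM, while of the blood cell adaptors GRAP2 was at 0 to 0.16 TPM, LCP2 at 0 and LAT at 2.29 to 8.24 TPM. Of 16 tested adaptors and regulators among 18 listed, 2 were higher and 2 lower in the mean over lines, near the 27.6% called among all genes. GRAP, an adaptor of the GRB2 type, rose by 0.69 ± 0.08 (edgeR adjusted p = 0.000238), and the adaptor CRKL fell by 0.30 (SE 0.05, adjusted p = 0.00122). CRKL missed the threshold with limma on log2(TPM + 1) (0.0571). The other calls, CRK at 0.17 and NCK2 at -0.29, were lost without either control library (adjusted p up to 0.32 and 0.21) and without replicate 1 of InsE, InsF or InsG, that of CRK also without InsH replicate 1. Without either control library the adaptor list had fewer calls, as all genes did. With library sizes alone it had 3 higher and 1 lower, where all genes had 2806 and 1699.

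Markers of blood cells, in which MAP4K1 is best known, were measured in the same libraries. Of 15 blood cell genes, 4 to 12 were at 0 in a library, and PTPRC, the pan-leukocyte gene, did not pass 0.02 TPM. CD3D, MS4A1 and CD53 were at 0 in all 10 libraries. The summed level was 55.01 to 55.96 TPM in the control and 48.0 to 64.3 TPM in the lines, most of it from CORO1A, an actin-binding protein gene. The 7 GIST markers were all above 0 in every library. Their summed level was 3375 to 3392 TPM in the control and 2545 to 2701 TPM in the lines. CD34 held the largest part, at 1706 and 1710 TPM in the control. KIT, the GIST receptor kinase, was at 716 and 723.5 TPM in the control and 344 to 507 TPM in the lines. In the mean over lines edgeR called 5 of the 7 lower and 0 higher, where 14.5% of all genes were called lower. ETV1 (adjusted p = 0.0908) and PDGFRA (0.0869) were not called. PDGFRA was called lower in InsE (log2 -0.20, edgeR adjusted p = 0.0235) but higher in InsG (0.32, 0.00315) and InsH (0.20, 0.0298). The part of these marker shifts in the MAP4K values was not tested.

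Genes of the JNK cascade, to which MAP4Ks signal, moved in both directions. Of its 32 genes, all tested, 10 were called higher and 6 lower in the mean over lines, where 13.1% of all genes were called higher and 14.5% lower, and the median was 0.10 beside 0.01. DUSP8, a phosphatase that inactivates JNK and p38 kinases, rose from 1.27 TPM in the control to 1.95 to 3.31 TPM as line means (log2 1.17 ± 0.17, edgeR adjusted p = 0.000816). JUN, the transcription factor that JNK phosphorylates, rose from 8.60 to between 11.9 and 15.4 TPM (0.57 ± 0.06, adjusted p = 0.000162). The phosphatase gene DUSP16 (0.36, adjusted p = 0.000632) and the scaffold gene SH3RF1 (0.39, adjusted p = 0.00268), named after their values were seen, rose as well. These 4 held with every library left out in turn, though DUSP8 missed the threshold with limma on log2(TPM + 1) (0.0552).

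The JNK genes themselves rose slightly, MAPK8 by 0.28, MAPK9 by 0.23 and MAPK10 by 0.25 (edgeR adjusted p = 0.0123, 0.00694 and 0.0165), but all 3 calls were lost without either control library (adjusted p up to 0.126, 0.127 and 0.178). They too were named after their values were seen. So were the called falls MAP3K3 (-0.19), MAP3K4 (-0.27) and TAB2 (-0.20), with edgeR adjusted p = 0.033, 0.00868 and 0.0157. These falls were likewise lost without either control library, and MAP3K3 also without replicate 1 of InsE, InsF or InsH. DUSP10 rose by 1.13 ± 0.22, a call lost without control replicate 1 (0.0821). Of the MAP3Ks, MAP3K1 fell by 0.34 and MAP3K9 by 0.29, and the scaffold gene MAPK8IP1 fell by 0.49 (edgeR adjusted p = 0.00536, 0.0039 and 0.0141). All 3 were lost without control replicate 1 (0.0661, 0.0824 and 0.05), and MAP3K1 and MAPK8IP1 also without control replicate 2 (0.0717 and 0.197). The kinases between them, MAP2K4 (0.14, adjusted p = 0.0797) and MAP2K7 (0.05, 0.749), were not called. With library sizes alone the list had 11 genes higher and 4 lower, where all genes had 2806 and 1699. With limma on log2(TPM + 1) it had 8 and 0, where all genes had 1435 and 801. Without either control library the list had fewer calls, as all genes did.

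**Figure D5:**
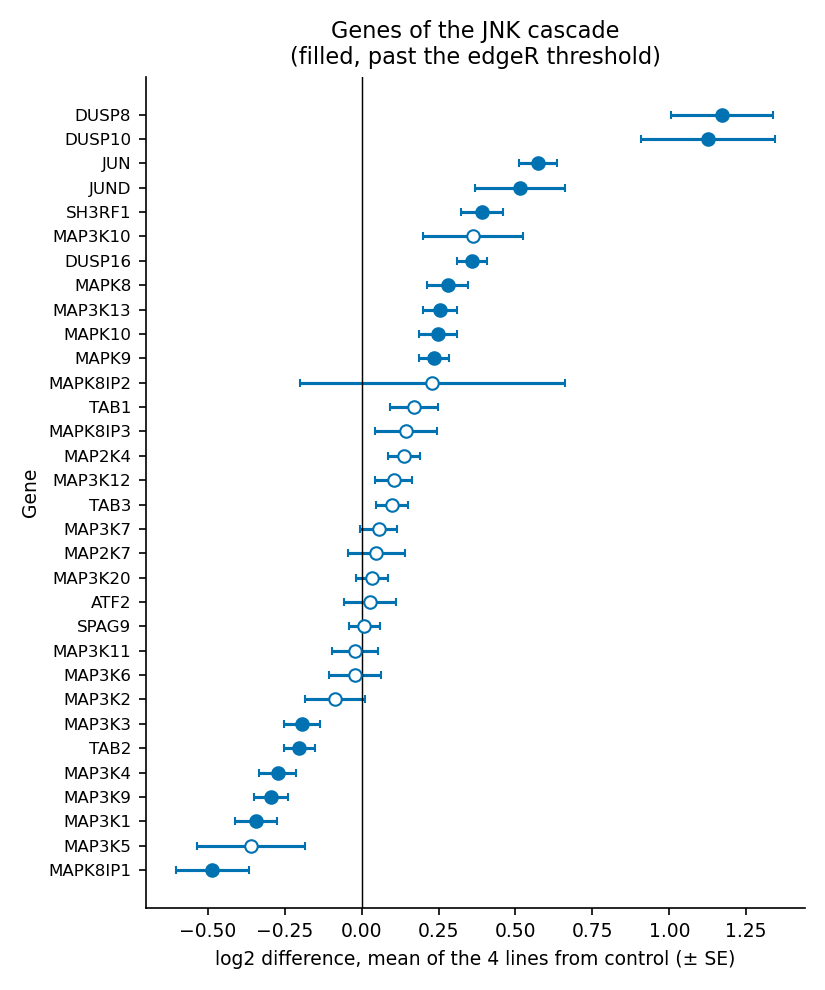
Log2 difference between the mean of the 4 lines and control with its standard error (horizontal axis) for the 32 genes of the JNK cascade (vertical axis), from the edgeR fit. Filled points passed the threshold, 10 to the right of 0 led by DUSP8 at 1.17 and 6 to the left led by MAPK8IP1 at -0.49.

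In the Hippo pathway, on which several MAP4Ks act, 2 of 20 tested genes rose and 3 fell, near the 27.6% called among all genes, with a median of -0.09. LATS1, a kinase that MAP4Ks can phosphorylate, fell by 0.39 (SE 0.06, edgeR adjusted p = 0.00186), and WWC2, a scaffold gene of the KIBRA type, rose by 0.34 ± 0.05 (0.000957). The LATS1 call was lost with limma on log2(TPM + 1) (0.0951). LATS2 fell by 0.22 and the transcription factor gene TEAD4 by 0.34, both calls being lost without control replicate 1 (0.105 and 0.104), that of LATS2 also without control replicate 2 (0.0666). YAP1 was at -0.09 (adjusted p = 0.343) and WWTR1, which encodes TAZ, at -0.11 (0.274). TAOK3 is in this list as well as in that of the STE20 kinases. Without either control library this list had fewer calls, as all genes did.

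Genes known as YAP and TAZ targets moved both ways. Of 18 tested among 22 listed, 6 rose and 8 fell, where 13.1% of all genes were called higher and 14.5% lower, with a median of -0.17. IGFBP3, a secreted binding protein of insulin-like growth factors, was -1.18 in InsE and 2.95, 1.44 and 1.79 in InsF, InsG and InsH, from 1.99 TPM in the control. CCN2, the connective tissue growth factor gene, rose by 0.85 ± 0.09 in the mean (edgeR adjusted p = 0.000161), with 2.002 in InsF and 0.29 to 0.64 in the other lines. MYOF, a membrane repair gene, fell by 0.38 (SE 0.04, adjusted p = 0.000128), in all 4 lines. CCN1 fell by 0.38 and FOXF2 by 0.41, and neither held without control replicate 1 (0.101 and 0.11), nor CCN1 also without control replicate 2 (0.133). CRIM1, at 0.84 (adjusted p = 0.0441), was lost without any of 8 of the 10 libraries (up to 0.254). The list had fewer calls without either control library, as all genes did.

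The other STE20 kinases had calls in both directions, 3 higher and 3 lower among 19 tested of 23 listed, near the 27.6% called among all genes, with a median of 0.00. STK24, a kinase of striatin complexes, rose by 0.41 ± 0.04 (edgeR adjusted p = 8.9e-05), from 138 TPM in the control to line means of 182 to 227 TPM, a rise called in all 4 lines. PAK2, an effector of RAC and CDC42, fell by 0.32 (SE 0.05, adjusted p = 0.00131), and STK39, a regulator of cation transport, fell by 0.30 (SE 0.05, adjusted p = 0.00138). With limma on log2(TPM + 1) both falls missed the threshold (0.0527 and 0.121). TAOK3 rose by 0.26, which did not hold without control replicate 2 (0.105). STK25 (0.22) and PAK1 (-0.17) were lost without either control library (up to 0.321 and 0.226), STK25 also without replicate 2 of InsE, InsG or InsH and PAK1 also without replicate 1 of InsG or InsH. The list had fewer calls without either control library, as did all genes. NRK, a kinase gene of the same subgroup as MAP4K4, was at 0.22 to 0.57 TPM.

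Of 14 partners of the other members, all tested, 1 was called higher and 2 lower, below the 27.6% called among all genes, with a median of 0.02. RAP2A, a small GTPase that binds MAP4K4, TNIK and MINK1, rose by 0.43 ± 0.05 (edgeR adjusted p = 0.000252), from 29.5 TPM in the control to line means of 39.6 to 44.1 TPM. TRAF2, an adaptor of tumour necrosis factor receptors, fell by 0.34, a call lost without control replicate 1 (0.0984). TCF7L2 fell by 0.33, lost without either control library (adjusted p up to 0.199). With library sizes alone the list had 3 genes higher and 2 lower, where all genes had 2806 and 1699. It had fewer calls without control replicate 1, as all genes did.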

How the data were processed

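The authors deposited 1 gene table per library with expected counts, TPM (transcript shares corrected for length) and a transcript length weighted by isoform share, which holds bases. The submitters' processing notes name hg38 and the tools RSEM (1.3.2), STAR (2.5.3) and DESeq2 (1.38.3). Neither annotation release nor strand setting is given in the sources used here. Of the deposited expected counts, 10.2% to 12.8% were not whole. A series table with 10 value columns was not used, because its column names match no label.

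Expected counts were rounded, filtered (edgeR's expression filter, minimum count of 10), scaled by TMM and fitted by the robust quasi-likelihood method of edgeR 4.0.16 (R 4.3.3). The fit held all 10 libraries in 5 groups and left 5 residual degrees of freedom. Each test was two-sided and adjusted by Benjamini-Hochberg over 15554 genes, with a threshold of 0.05. The fit was tested on simulated counts. Positions came from GENCODE 29, matched by identifier for 58261 of 58381 genes, and promoter sequences from RefSeq.

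Alternatives were DESeq2 1.42.0, library sizes alone, no filter, limma 3.58.1 on log2(TPM + 1) and log2(TPM + 0.1), a replicate block, and leaving out each library. Where a left-out library leaves 1 in a group, that library is assumed to vary like the others. Genes named are the 7 members, tested genes within 250 kb of MAP4K1, up to 3 rises and 3 falls called per list, and the genes most like MAP4K1. The members, lists and rule were chosen with earlier results of these data known, and MAP4K1 for its fall. Reads that fit several genes were shared out by RSEM.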

Additional observations from a re-analysis of the deposited data

Results flagged for a closer look

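MAP4K4 was lower in InsE than in the mean of InsF, InsG and InsH by edgeR's test of that difference (log2 -0.19 ± 0.05 (SE), adjusted p = 0.0155). The InsE libraries were at 141 and 142 CPM, beside 157 to 169 CPM in the other line libraries. Of all genes, 24.2% were called in this contrast and 12.8% as lower. The call was lost without InsE replicate 1 (adjusted p = 0.106) or InsE replicate 2 (0.0873). The joint test of the 4 lines did not call MAP4K4 (edgeR adjusted p = 0.0899), but it did with a replicate block (0.00432).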

How the results depend on the processing

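No value changed sign where it had been called, under any alternative run. The number of the 6 paralogues called in the mean of the lines was 2, and 1 with limma on log2(TPM + 1) and on log2(TPM + 0.1), and 1 to 2 with a library left out. In InsE, InsF, InsG and InsH, each with 2 calls, library sizes alone gave 1, 1, 0 and 1, and limma with either pseudocount gave 1, 0, 0 and 0. In InsE no filter gave 3, with MINK1 added (edgeR adjusted p = 0.0462). In InsG DESeq2 gave 1, and no filter gave 1, which was MAP4K2, with MAP4K4 (0.0562) and TNIK (0.0578) lost. With a library left out the 4 lines had 1 to 2, 1 to 2, 0 to 2 and 0 to 2 calls. InsE against the other lines had 1 call, 4 without the filter, and 0 to 1 with a library left out.

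The mean MAP4K1 difference of -2.41 was -1.33 with limma on log2(TPM + 1) and -1.69 on log2(TPM + 0.1), and -2.60 to -2.26 with a library left out. The gap of 1.75 percentage points in its share of the family's TPM was 1.61 to 1.90 without either replicate number. As a share of summed counts, an alternative chosen after seeing the data, the gap was 0.738. These gaps start from unlike control shares, 2.77% of the TPM and 0.97% of the counts. As means of InsE, InsF, InsG and InsH the count share was 0.41%, 0.14%, 0.14% and 0.24%, and the TPM share 1.43%, 0.50%, 0.91% and 1.23%.

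With limma on log2(TPM + 1) and log2(TPM + 0.1) the lists had 3 and 3 calls (STE20 kinases), 8 and 9 (JNK cascade), 3 and 3 (Hippo), 4 and 4 (YAP and TAZ targets), 2 and 2 (adaptors) and 1 and 1 (partners). Over all genes these limma fits called 2236 and 2238, in place of 4296. The partners had 5 with library sizes alone and 5 without the filter, where all genes had 4505 and 5047. With a library left out the ranges were 3 to 7, 4 to 17, 3 to 6, 5 to 15, 2 to 5 and 1 to 4. Calls over all genes also fell without either control library. The cause of these shifts was not tested. The 11 paralogue calls were lost in 22 of 110 tests with a library left out and in 24 of 66 under the other alternatives, and the 31 results without a call gained one in 0 of 310 and 15 of 186.

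The replicate numbers are not said to mark a batch, and the differences between replicates correlated at 0.00 to 0.46 over 10 pairs of groups. With a replicate block the mean MAP4K1 difference was -2.41, and 2 paralogues were called in the mean, 3 in InsE, InsF and InsG (MAP4K3, MAP4K5 and MAP4K2 being added, adjusted p = 0.0472, 0.0179 and 0.0179) and 2 in InsH. With the block, InsE against the other lines had 4 calls and the joint test of the lines 4 (MAP4K2, MAP4K3, MAP4K4 and TNIK), in place of 1 and 0. The lists with the block had 10 calls (STE20 kinases), 12 (Hippo), 7 (adaptors) and 8 (partners), in place of 6, 5, 4 and 3, and 6 of the 9 genes near MAP4K1 were called in place of 0. Over all 15554 genes the block raised the calls from 4296 to 6679 in the mean and from 2055 to 5442 in the joint test. Depth limits MAP4K1, of which line libraries held 10 to 60 counts.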
